A study of Drosophila melanogaster with 2 samples.

Results

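Of the 6829 peaks that passed the stricter, conservative threshold for CG9932-eGFP in Drosophila melanogaster embryos, 401 had their summit in an annotated exon and more than 500 bp from the transcription start site (TSS) of any protein-coding gene. A peak is a stretch of the genome where recovered DNA piled up, and its summit is the base where the pile was highest. The members were chosen by the position of the summit on the dm6 genome alone, against the Ensembl gene annotation, so no signal value entered the choice. They fell into 193 summits in coding exons (48.1%), 63 in 3' untranslated regions (3' UTRs), 46 in 5' UTRs and 99 in exons of noncoding genes. Of the noncoding summits, 89 lay in long noncoding RNA (lncRNA) genes, 5 in genes annotated as antisense RNAs and 5 in small nuclear RNA (snRNA) genes. Summits outside promoters that lay in no exon numbered 2923, of which 2103 were intronic and 820 intergenic, and 3467 more lay within 500 bp of a protein-coding TSS.

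Both samples of the series are biological replicates of 1 group and were assayed by ChIP-seq, in which DNA bound by a protein is pulled down and sequenced. They were whole embryos of 8 to 24 h from the strain CG9932-GFP, which carries an insertion that makes CG9932 fused to eGFP. An antibody against GFP recovered the DNA, and the chromatin had been sonicated to 200 to 800 bp. Whole embryos mix all cell types, the sources used here do not name the promoter that drives the fusion, and no untagged or control sample was analysed here. The deposited peak lists hold no read counts, so the depth of each library is unknown.

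CG9932 is a predicted zinc finger protein, a class that binds DNA through small folds held together by zinc. Transcription factors are usually mapped at promoters and at enhancers in introns or between genes. Exons are a different setting: coding sequence is constrained by the protein it encodes and is richer in G and C, while UTRs and lncRNA exons are not translated. A summit in an exon says where DNA was recovered and nothing of whether the RNA was bound or the gene regulated.

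The sequences below show what the exonic summits held under them. They come from among the strongest members with a match to either of the sequence groups described further on, and each gives 30 bases of the plus strand of dm6 (RefSeq) within 100 bp of a summit. The capitals mark the 7 matched bases. In the lines from noncoding exons and 3' UTRs the match is to a sequence common at intronic and intergenic summits, and in the lines from coding exons it is to a GC-rich sequence more common at the members than beside them.
lncRNA:CR44619, chrX:12752386-12752415: acatccctgaaCAGTGCAcaataataattt
lncRNA:CR46035, chr3R:17704310-17704339: aacgaggcagtACACTGAaacataagctgg
lncRNA:CR44619, chrX:12754437-12754466: caacaatgaggTACAGTGagcaccagacac
CG7872, 3' UTR, chrX:15579703-15579732: gtacgcgtcggCACAGTGtccactggctgc
by, 3' UTR, chr3R:9528698-9528727: atccacttgtcCCACTGTgcatttagtcaa
lncRNA:CR44363, chr3L:11405953-11405982: gatgacggtgcACAGTGGttacatgttaca
klar, coding, chr3L:506216-506245: cgtttgaatggCCGCCCAgaggtcgtcttt
Pde1c, coding, chr2L:11816529-11816558: gctggccgccaGGTGGCGcaattgtcccct
Snx27, coding, chrX:5737323-5737352: catgacgaccgCGCCGCCcccaccgccgcc
CG10962, coding, chrX:8973245-8973274: cctgagtgtgcGGTGGCGtggatagggcgt
CG7465, coding, chr3L:4480914-4480943: ccagttcagatCGCCGCCcctgtccagctg
CG1986, coding, chrX:9909628-9909657: ggctgctggggGGCGGTGcggaaatagaag

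The classes of exon differed in how densely they held summits. Exons of noncoding genes held 44.8 summits per Mb of their sequence (exact Poisson 95% interval 36.4 to 54.6), and 5' UTRs held 43.4 per Mb (31.7 to 57.8). Coding exons held 10.3 per Mb (8.92 to 11.9) and 3' UTRs 10.4 per Mb (7.99 to 13.3). Introns outside promoters held 38.8 per Mb (37.1 to 40.5) and intergenic sequence 20.8 per Mb (19.4 to 22.3). The intervals cover counting error only. The noncoding exons and the 5' UTRs therefore had as many summits per Mb as introns within their intervals, and coding exons and 3' UTRs had fewer than either.

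Signal, the value that the authors' peak caller gave each peak, also separated the classes. Its median was 129 in 3' UTRs, 123 in noncoding exons, 106 in 5' UTRs and 85.5 in coding exons, against 130 at the intronic and intergenic summits. The middle of the coding-exon values was narrow, with quartiles at 79.0 and 96.1, while the quartiles of the intronic and intergenic summits were 94.0 and 227. Of all members, 81 of 401 (20.2%) had a signal above the median of the whole set, against 1113 of 2923 intronic and intergenic summits (38.1%). The odds ratio was 0.41 (95% interval 0.32 to 0.53, Fisher's exact test, two-sided as throughout, adjusted p = 7.49e-13 over 3 comparisons). This p and those below treat each peak as independent, so they hold no spread between replicates. The difference lay in the coding exons, where 8 of 193 (4.15%) were above that median (Fisher's exact test, adjusted p = 9.1e-27 over 11 comparisons of single classes). Without them the share was 35.1%, with an odds ratio of 0.88 (0.66 to 1.18) against the intronic and intergenic summits (Fisher's exact test, adjusted p = 0.50).

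**Figure D1:**
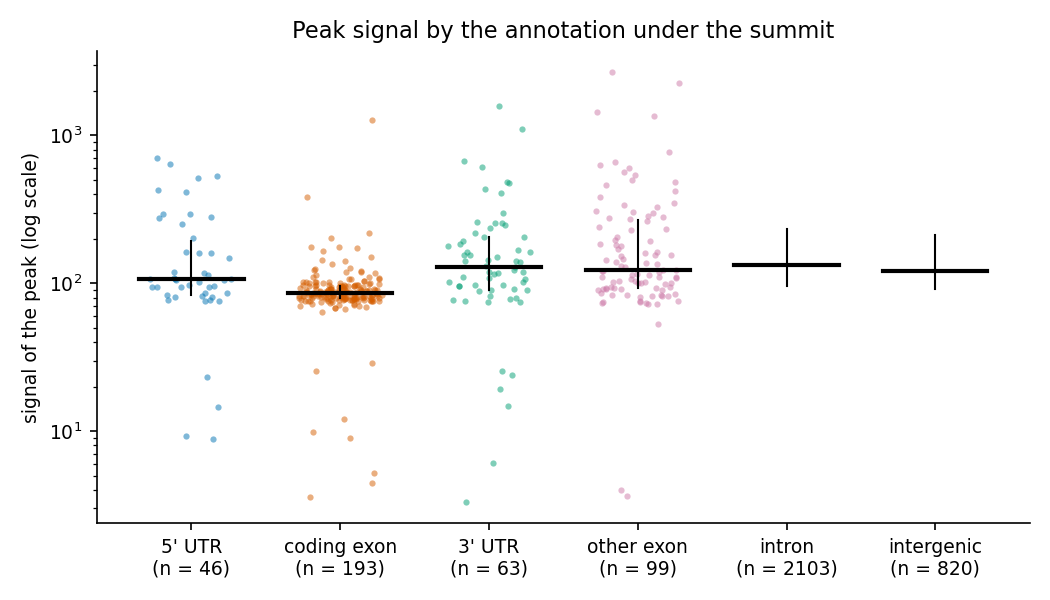
Signal of each exonic summit (points, log axis), with the median (thick bar) and quartiles (thin bar) of each class, and of intronic and intergenic summits on the right. Most coding-exon summits sit close to their median of 85.5, below the medians of 106 to 129 of the other exon classes, and a few members of each class lie far above it.

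The strongest members lay in noncoding exons. The peak at chrX:12750821-12751656, with its summit at 12751398, lay in lncRNA:Vinr (FBgn0287633), a virus-inducible lncRNA. It had a signal of 2671, the rank of 25 among all peaks of the conservative set. Replicate 1 gave it a signal of 1559 and replicate 2 a signal of 1127. The neighbouring lncRNA:CR44619 (FBgn0265830) held 2 more summits within 3.2 kb of it. The summit at 12752370 (signal 2257) lay in its exon 1 and the summit at 12754522 (signal 1348) in its exon 2. In the replicates' ranked lists the peak at 12752370 had 1275 and 987, and the one at 12754522 had 724 and 632. The nearest protein-coding TSS to the first 2 summits was that of CG4004, 5081 bp and 6053 bp away. On 3R, lncRNA:CR46035 held a summit at 17704400 with a signal of 1435, 13950 bp from the TSS of osa, which encodes a subunit of the Brahma chromatin remodelling complex. Thus 4 of the 5 strongest members lay in lncRNA exons, and all 4 were found in both replicates. A further 7 lncRNAs had a member among the 20 strongest, with signals of 501 (lncRNA:CR31840) to 770 (lncRNA:CR43857).

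Several of the noncoding summits sat near the start of a noncoding gene, which was not always the gene that held them. Of the 99, 46 (46.5%) lay within 500 bp of the TSS of any noncoding gene, which the choice of members did not use. The summit in lncRNA:Vinr, 469 bp from such a TSS, lay 61.2% of the way along its own exon of 2457 bp. The exons that held the 99 had a median length of 864 bp, and the share of their bases as near to a noncoding TSS was not computed. The snRNA genes, whose products are parts of the splicing machinery or, for 7SK, regulate the polymerase elongation factor P-TEFb, were represented by 5 of 32 (15.6%), against 80 of the 3289 genes annotated as noncoding RNA (2.43%). The strongest was snRNA:U1:95Ca (chr3R:23859478-23859657) with a signal of 347, and 185 and 156 in replicates 1 and 2. snRNA:7SKa followed with 205, and 92.8 and 106 in the replicates. The others were snRNA:U2:34ABb (signal 185), snRNA:U5:63BC (116) and snRNA:U4:39B (74.6). Of the snRNA summits 3 were found in both replicates and 1 in neither. How reads from near-identical snRNA copies were placed cannot be read from the peak lists. No tRNA (290 genes), snoRNA (269), rRNA (99), pseudogene (330) or microRNA gene (260) held a member. These counts and the snRNA share take no account of how much sequence each gene type spans, which was not computed.

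Among 5' UTRs the strongest summit was in Mef2 (FBgn0011656), which encodes the main transcription factor of muscle differentiation. Its peak at chr2R:9942866-9943101 had a signal of 706, with 409 in replicate 1 and 297 in replicate 2, and lay 1774 bp downstream of the nearest annotated TSS. Its base was exonic in 1 of the 3 transcripts that span it and intronic in the others. Fbl6, an F-box protein gene, had a 5' UTR summit with a signal of 642 (378 and 272 in replicates 1 and 2). The 5' UTR of cic, the repressor Capicua that receptor tyrosine kinase signalling relieves, had one with 534 (288 and 236). The uncharacterised gene CG15247 followed with 515. Of the 46 summits in 5' UTRs, 26 were also intronic in another transcript of the locus and 28 lay within 1000 bp of a protein-coding TSS. The nearest to the limit was Smox, a Smad of activin signalling, at 506 bp from its TSS (signal 118, not found in both replicates). On the other side of the limit, the exonic summit at CG7203 lay 499 bp from a TSS with a signal of 102, and that at Jon65Ai 493 bp away with 78.5. In the 3' UTR class the member nearest to a TSS was mRpL27, 504 bp upstream of that of RpL27A (signal 150).

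In 3' UTRs the strongest summit was in APC7 (FBgn0029879), a subunit of the anaphase promoting complex, at chrX:6599327-6599651. Its signal was 1572, with 921 in replicate 1 and 661 in replicate 2, and it lay 580 bp upstream of the TSS of the neighbouring gene pigs. CG7872 (chrX:15579641-15579955) had 1105, with 609 and 503 in the replicates. CG10357 had 673 (432 and 240), and by, which encodes the integrin adhesion protein tensin, had 610 (339 and 269). These summits were high in both replicates, and each overlapped a peak of both replicates' own sets. At the weak end, RpL19, a ribosomal protein gene, had a 3' UTR summit with a signal of 79.6 (50.9 and 36.3), which neither own set held.

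Coding exons held few strong summits. The strongest was in otp (FBgn0015524), a homeobox transcription factor of the nervous system, at chr2R:20884439-20884766. It had a signal of 1268, with 747 in replicate 1 and 532 in replicate 2, and its base was exonic in all 9 transcripts that span it. The next, klar, which encodes the nuclear envelope and transport protein Klarsicht, had 384 (218 and 170). Pde1c, a cyclic nucleotide phosphodiesterase gene, had 218 (128 and 91.5), and scrib, a scaffold of epithelial polarity, had 201 (101 and 110). After these, values lay close together: 99 of the 193 had a signal of 80 to 100, 50 one of 60 to 80 and 28 one of 100 to 150.

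Whether both replicates placed a peak at these sites was read from each replicate's own thresholded set. A peak was counted as found in a replicate when it overlapped a peak of that set by at least 1 bp. Both replicates held 110 of the 401 members (27.4%, Wilson 95% interval 23.3 to 32.0), against 1424 of 2923 intronic and intergenic summits (48.7%, 46.9 to 50.5). The odds ratio was 0.40 (0.32 to 0.50; Fisher's exact test, adjusted p = 1.1e-15). By class the share was 50.5% (50 of 99) in noncoding exons, 46.0% (29 of 63) in 3' UTRs and 37.0% (17 of 46) in 5' UTRs. None of these passed the test against the intronic and intergenic summits, with odds ratios of 1.07 (0.72 to 1.60), 0.90 (0.55 to 1.48) and 0.62 (0.34 to 1.13). In coding exons it was 7.25% (14 of 193, 4.37 to 11.8), with an odds ratio of 0.085 (0.050 to 0.15; Fisher's exact test, adjusted p = 4.96e-33). Neither own set held 138 of the 193 coding-exon summits (71.5%), against 755 of the 2923 intronic and intergenic ones (25.8%).

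Support was higher at higher signal in coding exons, in the other exon classes pooled, and at the intronic and intergenic summits, apart from signals under 60. Among peaks with a signal of 80 to 100, 1 of 99 coding-exon summits, 2 of 41 summits in the other exon classes and 17 of 592 intronic and intergenic summits were found in both replicates. In this band the odds ratio of all members was 0.84 (0.26 to 2.68; Fisher's exact test, adjusted p = 0.78). So few peaks of any kind were found in both there that this interval still holds the 0.40 of all signals, and no other band was tested. Above 300, both of the 2 coding-exon summits, all 34 of the others in exons and 505 of the 507 intronic and intergenic summits were found in both. Of the 21 members with a signal under 60, 20 overlapped a stronger peak of the same set, 2 were found in both replicates and 12 in neither. The second summit of Snx27 (signal 8.83) lay beside a stronger member of the same gene and was found in both.

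**Figure D2:**
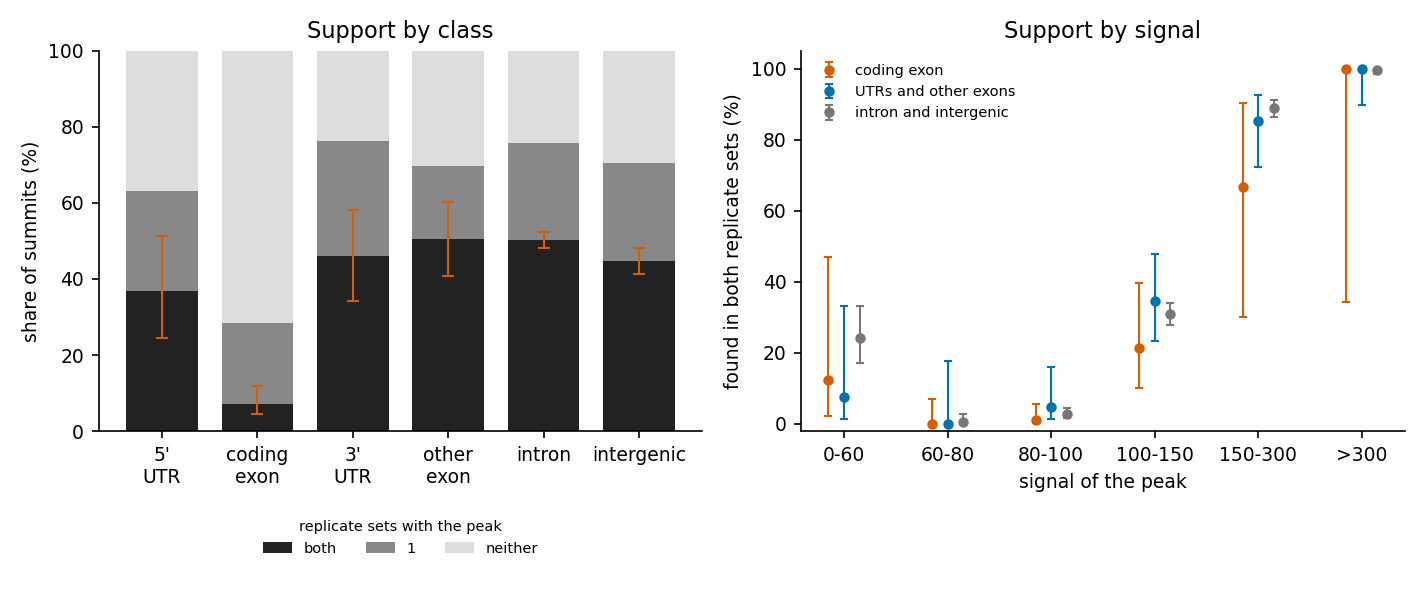
Left, the share of summits in each class found in both, 1 or neither of the replicates' own sets, with Wilson 95% intervals for both. Right, the share found in both by signal of the peak for coding exons, the other exon classes, and intronic and intergenic summits. Coding exons stand low at left (7.25%), while at right the 3 groups overlap within their intervals in each band of signal.

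The ranked lists, which hold peaks before any threshold, had a peak over nearly every member: 398 of 401 in replicate 1 and 397 in replicate 2. Across the 394 members with both values the signals had a Spearman correlation of 0.63, and the summits of the 2 replicates lay a median of 15 bp (replicate 1) and 19 bp (replicate 2) from that of the set. The correlation was 0.83 over noncoding exons (n = 98), 0.78 over 3' UTRs (n = 62), 0.75 over 5' UTRs (n = 46) and 0.20 over coding exons (n = 188). These points share libraries and a cut at low signal, so the values describe the lists. The coding-exon peaks had a median signal of 45.3 in replicate 1, where the lowest was 37.4, and of 42.4 in replicate 2, where the lowest was 34.0. Their range was thus short apart from otp, klar and a few others.

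**Figure D3:**
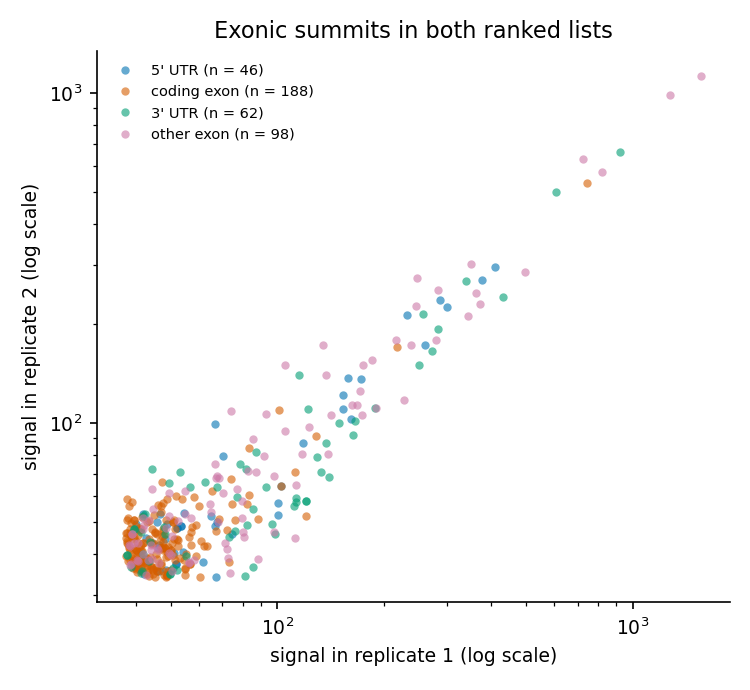
Signal of each member's peak in the ranked list of replicate 1 and of replicate 2 (log axes), coloured by class. Members in UTRs and noncoding exons run along the diagonal from 40 to above 1000, while most coding-exon members form a cloud near the low corner.

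The coding-exon summits also differed in base composition. In windows of 100 bp either side of the summit their median GC content was 59.7% (quartiles 55.7 and 63.7), while all coding sequence outside promoters had 53.4%. Windows of the same width centred 500 bp away had a median of 42.3%, and those of them that also lay in exons 49.3%. The 14 coding-exon summits found in both replicates had a median of 57.0% and the 138 found in neither 59.7%. In the other classes the median at the summit was 43.5% (5' UTRs), 38.8% (3' UTRs) and 40.8% (noncoding exons), against 39.8%, 37.8% and 40.8% at their flanks. Intronic summits ran the other way, with 37.8% at the summit and 40.8% at the flanks. Outside coding exons the median was 38.6% at the 96 summits found in both replicates and 48.8% at the 62 found in neither, a wider gap than within coding exons. Summits found in 1 replicate had a median of 60.2% in coding exons (n = 41) and 40.05% outside them (n = 50). GC content was thus higher at weaker support outside coding exons, while within them it differed little and did not rise in step. Its part in signal and support was not tested. The control alignment that the file descriptions list was not analysed here.

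**Figure D4:**
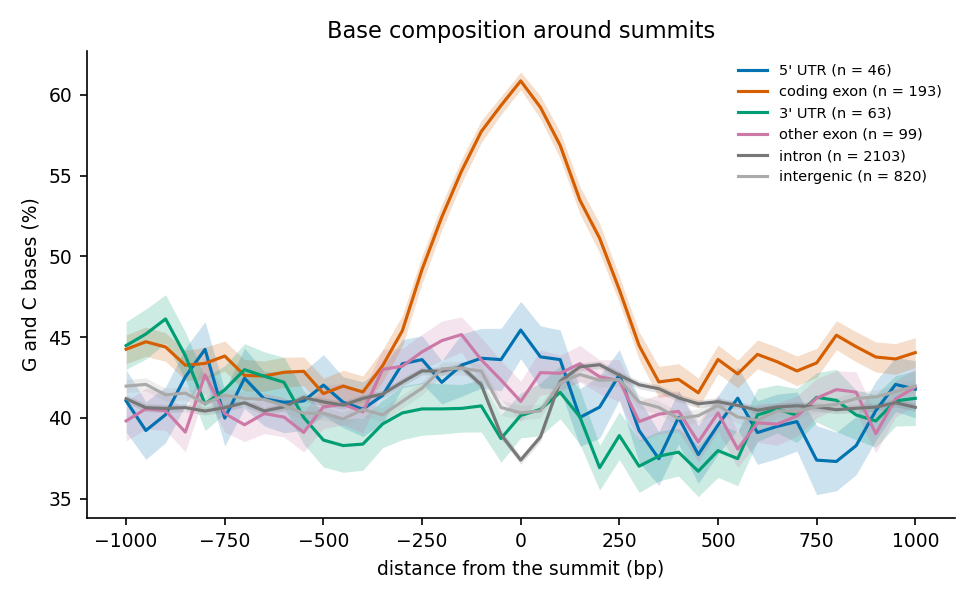
Mean share of G and C bases in 51-bp steps from 1000 bp before to 1000 bp after the summit, by class, with the standard error over summits as shading. The coding-exon line reaches 60.9% at the summit and is at 41.5% and 43.6% at 500 bp on either side, while the other classes stay between 36.7% and 46.1% throughout.

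Known motifs were searched on both strands in the same windows. Of the 16 motifs tested, 4 (25%) were called higher at the members than at the flanks. The insulator motif of CTCF, searched as its core AGGNGGC, lay in 16.0% of the 401 member windows against 7.11% of the 774 flank windows (odds ratio 2.48, 1.69 to 3.63; Fisher's exact test, adjusted p = 2.85e-05). The E-box CAGCTG, bound by basic helix-loop-helix factors, lay in 15.7% against 8.79% (odds ratio 1.93; Fisher's exact test, adjusted p = 0.0023). The CAG repeat, 3 CAG triplets in a row, lay in 7.23% against 2.20% (odds ratio 3.43; Fisher's exact test, adjusted p = 0.00026). GCCAT, the core of the Polycomb recruiter Pho, lay in 42.1% against 32.3% (odds ratio 1.53; Fisher's exact test, adjusted p = 0.0033). TATAAA was lower, in 12.5% against 25.7% (odds ratio 0.41; Fisher's exact test, adjusted p = 1.18e-06). Against the intronic and intergenic summits the same 4 of 16 (25%) were called higher. The shares at all 6791 summits on the arms were 8.17% for AGGNGGC, 10.5% for CAGCTG, 1.35% for the CAG repeat, 31.1% for GCCAT and 29.0% for TATAAA.

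The motifs called higher were each most frequent in the coding exons, and TATAAA was least frequent there. In coding-exon windows AGGNGGC lay in 24.9%, CAGCTG in 23.3%, GCCAT in 50.8%, the CAG repeat in 10.9% and TATAAA in 1.04%. Against flanks and without the coding exons, which leaves fewer windows, no motif was called (1 of the 16 had an unadjusted p under 0.05, Fisher's exact test). The odds ratios were then 1.24 for AGGNGGC, 1.16 for CAGCTG, 1.11 for GCCAT and 0.70 for TATAAA, while that of the CAG repeat was 2.99 (3.85% against 1.27%), close to its 3.43 over all members. Against the 405 flank windows that themselves lay in exons, only AGGNGGC stayed higher and TATAAA lower. With these fewer windows, 5 of the 16 motifs had an unadjusted p under 0.05 (Fisher's exact test). The odds ratios of the CAG repeat, CAGCTG and GCCAT were then 2.30, 1.52 and 1.38. The motifs of core promoters were rare at the members: TATCGATA, the DRE bound by Dref, lay in 1 of the 401 windows and GGTCACAC, the Motif 1 core, in none.

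A search over all 8192 sequences of 7 bases (both strands joined) called 150 of them higher at members than at flanks, 1.83% of those tested, and 139 of the 150 had at least 5 G or C bases, as had 1856 of the 8192 tested. The leading ones were CGCCACC and CGCCGCC, each in 48 member windows (12%), against 2.33% and 2.45% of flank windows (odds ratios 5.61 and 5.32; Fisher's exact test, adjusted p = 4.38e-07 for both). CACCGCC lay in 11.5% against 2.20%. CCACCGC lay in 11.0% against 2.20%, CCGCCCA in 11.0% against 2.45% and CGCCCAC in 11.0% against 2.71%. These sequences overlap one another and recur within single windows, as in Snx27 above. In coding-exon windows they reached 17.1% to 21.2%, and coding exons alone gave 306 calls against 1 without them. The fewer windows without coding exons left CACCGCC at an odds ratio of 5.04 (5.66 over all members), CGCCACC at 3.38 and CGCCGCC at 1.92, none of them called. The 405 flank windows that lay in exons, fewer than the 774 of all flanks, left 12 calls, all of them among the 150. In the sets of single replicates, which held fewer coding-exon summits (62 in replicate 1, 52 in replicate 2), 0 and 2 sequences passed, and 247 and 230 had an unadjusted p under 0.05 (Fisher's exact test).

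The members outside coding exons held sequences that were also common in the rest of the set. At the 2923 intronic and intergenic summits the same search called 180 sequences, led by ACAGTGG (10.2% of their windows), CACAGTG (8.93%), CAGTGCA (9.0%), CACTGTA (8.04%), CAGTGTA (7.05%) and ACACTGA (6.53%). All 6 hold the 5 letters CAGTG on 1 strand, so they overlap one another. At least 1 of the 6 lay in 93 of the 401 member windows (23.2%) and in 83 of the 774 flank windows (10.7%), an odds ratio of 2.51 (1.82 to 3.47; Fisher's exact test, p = 3.87e-08). The 6 were taken from summits that are no members, and this comparison was added after the data had been seen. By class the shares were 35.4% against 8.0% at flanks in noncoding exons (odds ratio 6.16, 3.18 to 11.9), 30.4% against 12.8% in 5' UTRs (2.93, 1.22 to 7.04) and 28.6% against 10.9% in 3' UTRs (3.21, 1.47 to 7.02). All 3 passed Fisher's exact test with adjusted p of 7.46e-08, 0.026 and 0.0073. In coding exons the share was 13.5% against 11.5% (odds ratio 1.20, 0.72 to 2.01; Fisher's exact test, adjusted p = 0.50). These sizes depended on the set: coding exons had odds ratios of 2.15 in replicate 1's set, 2.08 in replicate 2's and 1.91 in the optimal set, of which the last passed (Fisher's exact test, adjusted p = 0.017). In replicate 1's set and replicate 2's set the odds ratios were 3.60 and 4.54 for noncoding exons and 5.94 and 5.33 for 3' UTRs, and that of 5' UTRs missed the threshold in replicate 2's (3.94; Fisher's exact test, adjusted p = 0.063). For scale, 32.8% of the intronic and intergenic windows that gave the sequences and 21.3% of promoter summits held at least 1 of them.

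**Figure D5:**
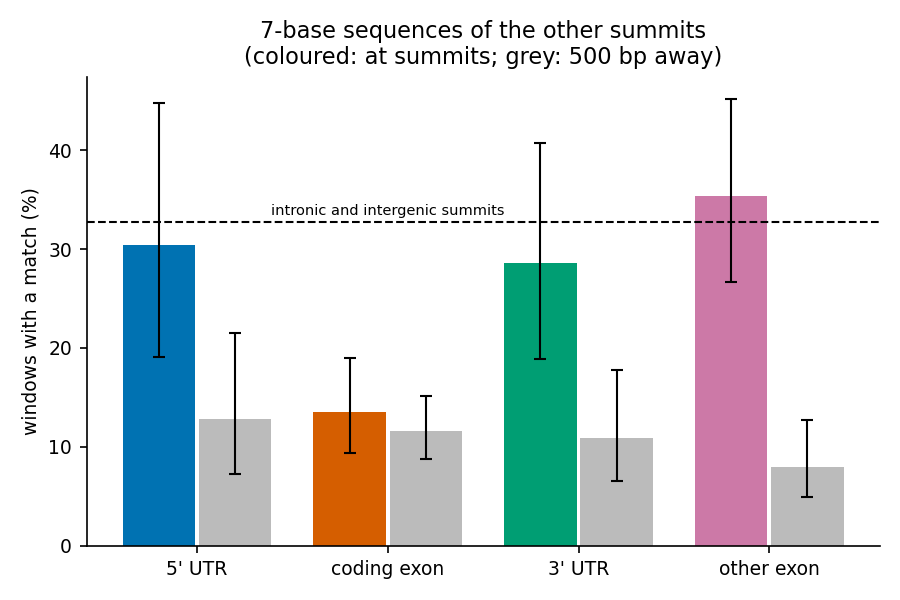
Share of windows within 100 bp of a point that hold at least 1 of the 6 leading 7-base sequences of intronic and intergenic summits, at the exonic summits (coloured, left bar of each pair) and 500 bp away (grey, right bar), with Wilson 95% intervals. The dashed line marks the 32.8% of the intronic and intergenic summits themselves; in this set the pair of bars is closest to equal in coding exons (13.5% and 11.5%).

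Outside coding exons the shares with a match overlapped within their intervals between summits found in both replicates and in neither. It lay in 29 of the 96 summits found in both replicates (30.2%, 21.9 to 40.0) and in 20 of the 62 found in neither (32.3%, 22.0 to 44.6). In coding exons it lay in 3 of 14 found in both and in 16 of 138 found in neither (11.6%, 7.26 to 18). Strong members with a match included lncRNA:CR44619 at both of its summits, CG7872, by, Tctp (signal 482) and the 5' UTR of Raf (276), the kinase of the receptor tyrosine kinase pathway. lncRNA:Vinr, APC7, otp and Mef2 had none within 100 bp of the summit.

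Coding-exon summits were scarce on X. X held 7 of the 193, or 2.12 per Mb of its coding sequence outside promoters (0.851 to 4.36), against 12.3 per Mb (10.6 to 14.2) on chromosomes 2 and 3. The other exon classes had 21.1 per Mb on X (15.2 to 28.7) and 23.3 per Mb on chromosomes 2 and 3 (19.9 to 27.1). Intronic and intergenic summits had 38.5 per Mb on X (35.5 to 41.7) against 31.4 per Mb (30.1 to 32.7). Of the 7 on X, 3 were found in both replicates (Snx27, CG10962 and CG1986) and 2 in neither, against 11 and 136 of the 186 on chromosomes 2 and 3. The comparison was added after the data had been seen and carries no test.

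CG9932 (FBgn0262160) itself, the gene whose product was tagged, held 3 coding-exon members, more than any other gene in that class. They lay at chr2L:13023883-13024252 (signal 107, 58.8 and 49.1 in replicates 1 and 2), chr2L:13026461-13026830 (109, 52.0 and 59.9) and chr2L:13028984-13029353 (125, 73.1 and 37.8). The first 2 were found in both replicates and the last in replicate 1. The gene also held 2 intronic summits, with signals of 125 and 201, and none at a promoter over its 38273 bp. Whether DNA of the inserted transgene adds to these peaks was not tested. Without the 3 members, 108 of 398 members (27.1%) were found in both replicates.

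Most host genes held a single member: 321 of 358 genes had 1, 30 had 2, 6 had 3 and 1 had 5. The gene with 5 was lncRNA:CR43334 on 3L, whose summits within a single exon had signals of 286, 194, 137, 130 and 91.9, and 4 were found in both replicates. baz, which encodes the polarity protein Par-3, had 3 in its 5' UTR on X with signals of 279, 203 and 160. lncRNA:CR43459 had 3 (263, 240 and 93.0). Dhit also had 3, all found in neither replicate, and 2 of them overlap.

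Exons of protein-coding genes placed members in 277 of the 13968 protein-coding genes, 1.98% of them. Against that share, 7 of 59 genes of cytoskeleton and motors held a member (11.9%). They included baz, chic (profilin, an actin-binding protein), scrib, alphaTub84B (an alpha-tubulin), form3 (a formin) and Dhc64C (the dynein heavy chain), and 4 of the 9 members of the list were found in both replicates. Of 47 muscle genes matched by symbol, out of 51 listed, 5 held one (10.6%). Beside Mef2 these were the coding exons of Prm (paramyosin, signal 98.0), Mlc2 (a myosin light chain, 95.7), how (an RNA-binding regulator of muscle development, 94.9) and Act57B (a muscle actin, 91.7), of which none was found in both replicates. Of 39 Polycomb and trithorax group genes 3 held members (7.69%): corto (102), Su(z)2 (90.8 for its stronger) and phol (69.5 for its stronger), with none of the 5 members found in both. Of 69 developmental signalling genes 4 did (5.80%): aop, the ETS repressor Yan, in its 5' UTR (252, found in both), ptc, the Hedgehog receptor (120), InR, the insulin receptor (114), and sax, a BMP receptor (75.9). Of 77 homeobox genes 4 did (5.19%): otp, the Hox genes lab (117) and pb (95.1), and al (87.5), and otp alone was found in both. The lists are small, were chosen with earlier results known and carry no test. Symbols that matched no gene of the annotation were not counted. These were Unc-89, mf, Tmod and CapZ for muscle, calypso for Polycomb and trithorax, and Dl, krn and phl of the 72 for signalling. Among the lists below, Eip71CD and phm of nuclear receptors and ecdysone matched none. The muscle and signalling shares leave out the members in Mf (103), Obsc (111) and Raf (276), of which only that in Raf was found in both. A gene with little exon sequence over 500 bp from any protein-coding TSS could hardly hold a member. The shares of these lists and of those below take no account of that or of gene length.

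The remaining lists had lower shares, some above and some below the 1.98% of all genes. Axon guidance and cell adhesion had 2 of 71 (2.82%), Lac (88.2) and dpr1 (70.2), both immunoglobulin domain proteins. Ion channels and synapse had 2 of 63 (3.17%), VAChT, the vesicular acetylcholine transporter (85.5), and pyx, a thermosensitive TRP channel (74.8). Cuticle proteins had 4 of 121 (3.31%), with Cpr49Ac at 111, Ccp84Ac at 86.7, Cpr67B at 84.6 and TwdlN at 79.3. Only Cpr67B of these was found in both. Histone genes had 1 of 115 (0.87%; His2Av, 67.4), cytosolic ribosomal proteins 1 of 93 (1.08%; RpL19) and chemosensory genes 1 of 230 (0.43%; Ir87a, 77.6). No gene of 34 for extracellular matrix or of 31 for nuclear receptors and ecdysone held one.

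Exonic summits less often had a host gene bound at its promoter than intronic summits did. Of the 302 members in an exon of a protein-coding gene, 131 (43.4%, 37.9 to 49.0) had a host with a summit within 500 bp of one of its own TSS, against 1225 of 2069 intronic summits in such a gene (59.2%, 57.1 to 61.3). The odds ratio was 0.53 (0.41 to 0.67; Fisher's exact test, adjusted p = 2.88e-07). Coding exons had 39.9% (77 of 193; Fisher's exact test, adjusted p = 1e-06), 5' UTRs 45.7% and 3' UTRs 52.4%. Without the coding exons the share was 49.5% of 109 and missed the threshold (odds ratio 0.68, 0.46 to 0.99; Fisher's exact test, adjusted p = 0.086). In replicate 2's set alone the share was 44.6% against 49.0% (odds ratio 0.84; Fisher's exact test, adjusted p = 0.38), and coding exons missed it too, with 38.5% (0.66; adjusted p = 0.37). Gene length, which differs between genes that hold intronic and exonic summits, was not part of this comparison. It counted summits, so a gene with several summits entered each time with the same outcome, and the p and interval ignore this. The members lay in exons of 277 protein-coding genes, while 1124 such genes spanned the 2103 intronic summits. Hosts of a member were genes with an exon at the summit, and hosts of an intronic summit were all genes spanning it.

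The summits did not lie near an exon edge more often than the average over members of the share of their exon's bases as near. Within 50 bp of the nearest exon edge lay 48 of the 401 summits (12%, 9.15 to 15.5). The share of an exon's bases as near averaged 14.7% over the members, each counted alike whatever the length of its exon. In coding exons 17 of 193 summits lay as near (8.81%, 5.57 to 13.7), against an average share of bases of 16.2%. The exons had a median length of 999 bp and reached from 77 to 15710 bp. The nearest protein-coding TSS lay a median of 2001 bp away, while the intronic and intergenic summits had a median of 2978 bp. Another summit of the set lay within 1000 bp of 103 members (25.7%), against 28.7% of the intronic and intergenic summits.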

How the data were processed

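The authors deposited ChIP-seq peak lists on dm6. Per the deposited file descriptions, the conservative and optimal sets come from both replicates and 1 thresholded and 1 ranked list from each replicate alone; for the caller, the aligner and their settings the sources used here give nothing. The signal values and the scores in the deposited lists are the authors' own: signal is the caller's value per peak, and the score is that of the irreproducible discovery rate (IDR), at most 1000 and at least 830 in the conservative set. With no counts deposited, precision comes from numbers of peaks. Sample age was read from the source name, per the labels; their age field holds a number of hours far beyond that range, a conflict the sources used here do not settle.

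Here, summits (counted from 1) were placed against Ensembl release 115 (BDGP6.54) with promoters taken before 5' UTRs, then coding exons, 3' UTRs and noncoding exons, then introns and intergenic sequence. The 38 peaks on unplaced scaffolds and the annotation's transposable elements were left out, as were the ranked lists of both replicates together. Motif windows were 201 bp; flanks lay 500 bp to each side, equally wide, with no summit within 200 bp. Calls needed an adjusted p below 0.05 with an odds ratio no lower than 1.5 or no higher than 0.667, and for 7-base sequences a match in 2% of member windows. The motifs, on both strands, were the DRE (TATCGATA), cores of Motif 1 (GGTCACAC) and Motif 7 (CANCNCTA), the Trl site (GAGAGAG), an E-box (CAGCTG), a second E-box form (CACGTG), the site of Serpent and its relatives (AGATAAG), Zelda (CAGGTAG), the CTCF core (AGGNGGC), the TBP box (TATAAA), the trinucleotide repeat (CAGCAGCAG), the dinucleotide repeat (CACACACA), Grainy head (AACCGGTT), STAT (TTCNNNGAA), AP-1 (TGANTCA) and the Pho core (GCCAT). Odds ratios had 0.5 added to each count, p-values are Fisher's exact (two-sided), adjusted after Benjamini and Hochberg, and share intervals were 95% Wilson intervals.

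Named genes were hosts of the 20 strongest members found in both replicates, the 3 strongest of each class, up to 5 genes with the most members, the 2 strongest of each gene list and the summits nearest the 500 bp limit; others were named after their values were seen. Members and lists were chosen with earlier results of these data known. Alternatives were other TSS distances, peak centres, other sets, overlap rules, windows and flanks. Python 3.11.15, scipy 1.17.1, pandas 2.3.3, numpy 2.4.6 and matplotlib 3.10.9 were used, and the steps were tested on simulated data.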

Additional observations from a re-analysis of the deposited data

How the results depend on the processing

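The members were 5.90% of the peaks on the arms. The share was 7.51% with a TSS distance of 200 bp, 4.55% with 1000 bp, 6.62% in the optimal set, 4.45% with exons of protein-coding genes only, 2.39% among peaks above the median signal, and 3.95% to 4.06% in the sets of single replicates. In the signal band of 80 to 100, chosen after seeing the data, support gave odds ratios of 0.84 for all members and 0.50 for coding exons (Fisher's exact test, adjusted p = 0.78 for both), with too few supported peaks to show a difference. In the optimal set 5' UTRs were also found in both replicates less often (odds ratio 0.52). There, 3' UTR summits (0.50) and members without coding exons (0.65) also less often had a host bound at its promoter. Coding exons gained the shared sequences in that set (1.91). In the sets of single replicates the promoter odds ratios ran from 0.59 to 0.84 for all members, 0.56 to 0.77 without CG9932 and 0.41 to 0.66 for coding exons, and that for signal without CG9932 from 0.68 to 0.69. In replicate 2's set all of these missed the threshold (Fisher's exact test, adjusted p = 0.38, 0.46, 0.37 and 0.092). Motifs called against flanks (5) fell to 2 with exonic flanks, of which there were fewer. They fell to 0 without coding exons or in the sets of single replicates. The CAG repeat stayed at odds ratios of 2.99 without coding exons and 3.26 to 3.30 in single replicates. Against other summits 3 to 4 motifs remained in single replicates. The 150 called 7-base sequences became 17 with windows of 50 bp, 12 with exonic flanks, 306 in coding exons alone, 1 without them, 288 in the optimal set and 0 to 2 in the sets of single replicates. The shared sequences in 5' UTRs had odds ratios of 2.35 with windows of 50 bp (Fisher's exact test, adjusted p = 0.19) and 3.0 to 3.94 in single replicates. Other causes were not tested. No paired analysis was possible because the series holds 1 group. Peak numbers limit precision: the 46 summits in 5' UTRs leave wide intervals. Most coding-exon peaks were weak, with quartiles of signal at 79.0 and 96.1, and how near they lay to the authors' threshold was not measured.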
